A study of Mus musculus with 6 samples.

Results

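Mitochondria keep their own small circular genome, and every protein that copies, transcribes and packages it is encoded in the nucleus. The 10 genes described here encode the core of that machinery: Tfam, Tfb1m, Tfb2m, Polrmt, Polg, Polg2, Twnk, Ssbp1, Top1mt and Mgme1. They were found by gene symbol, with Twnk listed under its older symbol Peo1, and all 10 of the 10 are among the 24054 genes of the deposited table. All 10 also passed the filter on low counts, which kept the 14568 genes whose group mean exceeded 1 CPM (counts scaled to a library of 1e+06) in either group.

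The genes were measured by sequencing polyadenylated RNA from the brain of 3 littermate controls and 3 MitoPark mice, both C57BL/6 based, untreated and 16 to 17 weeks old by the labels. The study's methods give the dissected region as the substantia nigra. By those methods MitoParks carry loxP sites on both copies of Tfam (TFAM LoxP/LoxP) and Cre at 1 copy of the dopamine transporter gene (Dat +/Cre), so that Tfam is deleted in cells that express the transporter and not in the other cells of the dissected tissue. By the methods controls carry loxP on 1 Tfam copy and no Cre (TFAM +/LoxP, Dat +/+) and come from MitoPark or parental strain litters. The study calls the sequenced controls littermates, whereas the labels give their genotype only as C57BL/6. RNA came from whole tissue, so that fewer cells of a type and less RNA per cell cannot be told apart. By these genotypes the groups also differ in loxP copies at Tfam in all cells, which cannot be told apart from the deletion.

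Mitochondrial transcription factor A (TFAM) binds along mitochondrial DNA, bends it and packs it into nucleoids, and it starts transcription together with the RNA polymerase POLRMT and the factor TFB2M. Replication uses a short transcript as primer, the helicase TWNK to open the duplex, the single-strand binding protein SSBP1 to hold the strands apart, and the polymerase POLG with its accessory subunit POLG2 to copy them. The topoisomerase TOP1MT relieves twist, and the exonuclease MGME1 trims the ends that replication leaves. Cells without TFAM lose their mitochondrial DNA over time, which is the basis of the MitoPark model.

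The libraries held between 8140777 and 10528602 expected counts. Control 3 stood apart in dopamine neuron genes, with a summed level of 1501 CPM over 10 such genes against 458 and 550.5 CPM in controls 1 and 2 and between 303 and 560.3 CPM in MitoParks. MitoPark 3 alone held Tph2, the enzyme gene of serotonin neurons, at 23.3 CPM, while the other 5 mice were at 0.781 CPM or less. Control 1 and MitoPark 2 had Y-linked transcripts and almost no Xist, and the other 4 libraries had Xist at 829 CPM or more. Each group thus held 1 library of the first kind and 2 of the second. Tfam and the marker lists are given with and without control 3 and MitoPark 3 where those libraries change them, and the members with each mouse left out. Nothing in the labels says whether same-numbered mice share a litter.

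Tfam, the gene deleted in MitoParks, was the member with the smallest p between the groups. Its expected counts were 362, 467 and 464.74 in controls 1, 2 and 3 and 268, 327 and 293 in MitoParks 1, 2 and 3. After scaling for library size by edgeR's TMM method these counts correspond to 40.3, 44.3 and 45.4 CPM in controls and to 32.6, 33 and 33.2 CPM in MitoParks. The groups did not overlap, and the lowest control lay well above all MitoParks. Controls averaged 43.3 ± 2.7 CPM and MitoParks 32.9 ± 0.284 CPM (both SD, n = 3). MitoPark over control, this is -0.40 on the log2 scale (standard error 0.11, 95% interval -0.64 to -0.15), or 24% less, at an unadjusted p of 0.00565 by the quasi-likelihood test of edgeR. By that p Tfam stood in place 9 among the 14568 genes tested, but after Benjamini-Hochberg adjustment over all of them p was 0.999. The point estimate is smaller than 1.5-fold, the cutoff the study applied, while the interval includes that size. An exact two-sided permutation test over the 6 mice gave p = 0.1 for Tfam, which is the smallest p that 3 mice against 3 allow.

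**Figure D1:**
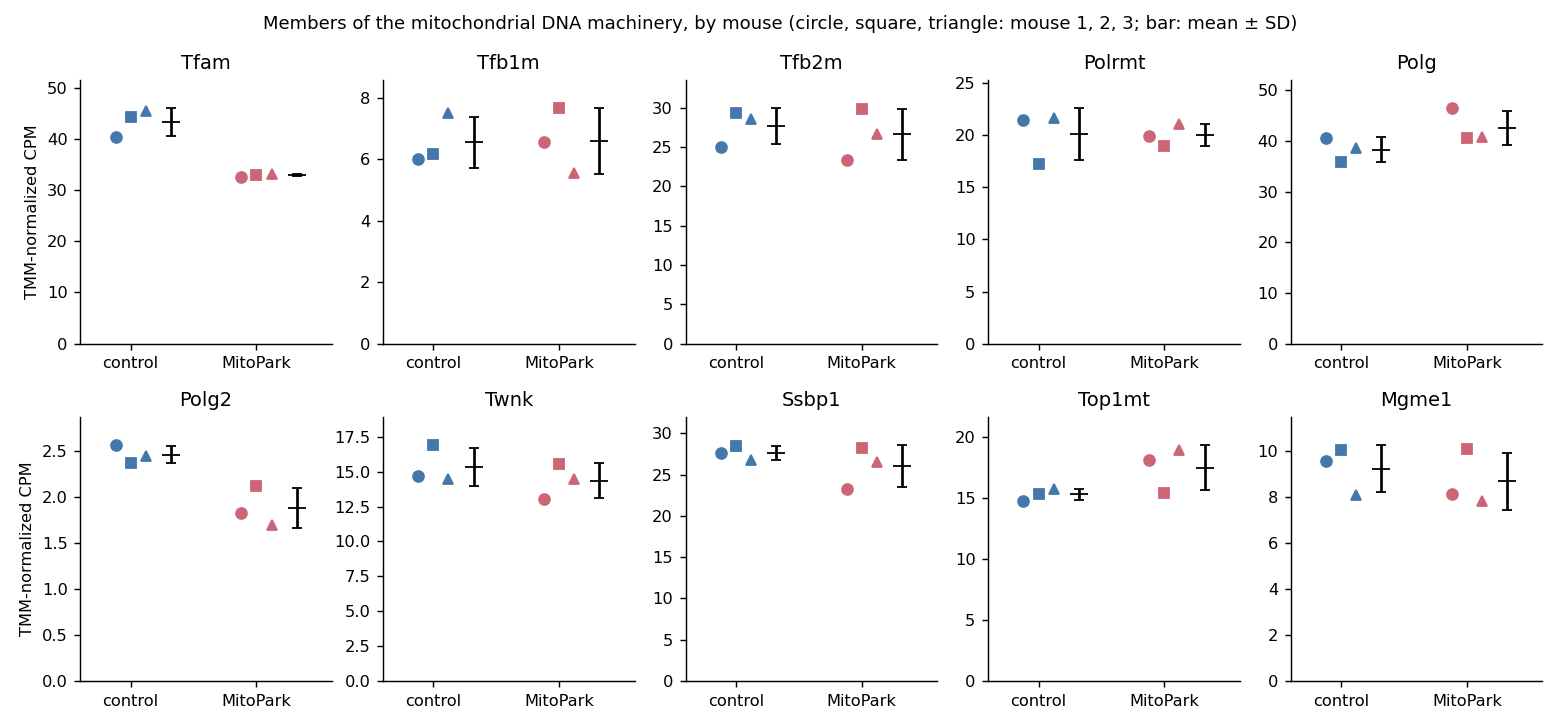
TMM-normalized CPM (y axes, each starting at 0) of the 10 members in 3 littermate controls (blue) and 3 MitoParks (red), with mean ± SD beside the points. Tfam is lower in all 3 MitoParks, at 32.6 to 33.2 CPM, than in any control, at 40.3 to 45.4 CPM, while the groups overlap for 7 of the 10 genes.

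The 3 MitoParks lay closer together in Tfam than counting error alone would give on average. Their values had a coefficient of variation of 0.862%, whereas counting error alone gives 5.81% at these counts. The SD of MitoParks is therefore smaller than the precision of the counts, whereas the standard error of the fit draws on the spread of all genes.

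Ratios within a library do not depend on how libraries are scaled. Tfam divided by the sum of the other 9 members was 0.248, 0.274 and 0.277 in controls and 0.203, 0.196 and 0.203 in MitoParks. All 3 MitoParks lay below all 3 controls, and the mean ratio was 24.7% lower (exact permutation test, p = 0.1, the smallest possible). Against single members the mean ratio was 31.6% lower for Tfam over Polg, 24.3% lower over Polrmt, 20.3% lower over Tfb2m and 18.9% lower over Ssbp1. The groups did not overlap in any of these 4 ratios, which for Polg follows from the levels of both genes. They did not overlap over Tfb1m, Twnk or Top1mt either, but they overlapped over Polg2 and over Mgme1. Against Rbfox3, which encodes the neuronal nuclear marker NeuN, the mean ratio was 22.8% lower, again without overlap. Of the pan-neuronal genes listed, Rbfox3 had the log2 fold change nearest to 0, at -0.02. Over Stmn2 the ratios did not overlap either, but over Snap25, Syt1, Nefl and Map2 those of the groups overlapped.

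Of the genes of dopamine neurons, the cells in which Tfam is deleted, few passed the test. Slc6a3, the dopamine transporter gene, of which MitoParks carry Cre at 1 copy, was at 72.5, 65.2 and 383 CPM in controls 1, 2 and 3, whereas MitoParks had 13.3, 51.0 and 40.9 CPM. By edgeR's quasi-likelihood test MitoParks lay at -2.30 relative to controls on the log2 scale (unadjusted p = 0.00895), with an adjusted p of 0.999. Without control 3 that value was -0.97 (unadjusted p = 0.023, edgeR's quasi-likelihood test). Since only MitoParks carry Cre at this gene, an effect of Cre on its level cannot be told apart from fewer dopamine neurons. Control 3 stood far above the other controls in Slc6a3. It also had the highest Tfam of all mice, at 45.4 CPM, followed by control 2 at 44.3 CPM. The 10 dopamine neuron genes were Th, Slc6a3, Slc18a2, Ddc, Pitx3, Nr4a2, En1, Aldh1a1, Foxa1 and Chrna6. All 10 had a log2 fold change below 0, as had 51.4% of all genes tested, and their median was -0.77. Pitx3 passed the filter only through the controls, so its direction followed from the filter. It was at 0.556, 0.474 and 3.71 CPM in controls and at 0, 0.505 and 0.453 CPM in MitoParks. Slc6a3 and Foxa1, 20% of the list, had an unadjusted p below 0.05, beside 1.11% of all genes tested. None had an adjusted p below 0.05. Without control 3 Pitx3 did not pass the filter, 6 of the 9 that were then tested were below 0 and the median was -0.08. In that fit 1 of the 9 had an unadjusted p below 0.05, beside 374 genes over the table. Without MitoPark 3, the library with Tph2, all 10 were below 0, the median was -0.95 and 1 had an unadjusted p below 0.05, beside 97 genes over the table. The numbers of genes tested without control 3 or MitoPark 3 are not given here, so these counts have no share beside them. The unadjusted p of Foxa1 was 0.158 without control 3 and 0.0704 without MitoPark 3 (edgeR's quasi-likelihood test). Tfam without control 3 had a log2 fold change of -0.36 (unadjusted p = 0.0246, same test), and without MitoPark 3 it had -0.40 (unadjusted p = 0.0132, same test). What part the number of dopamine neurons has in the Tfam difference was not tested.

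**Figure D2:**
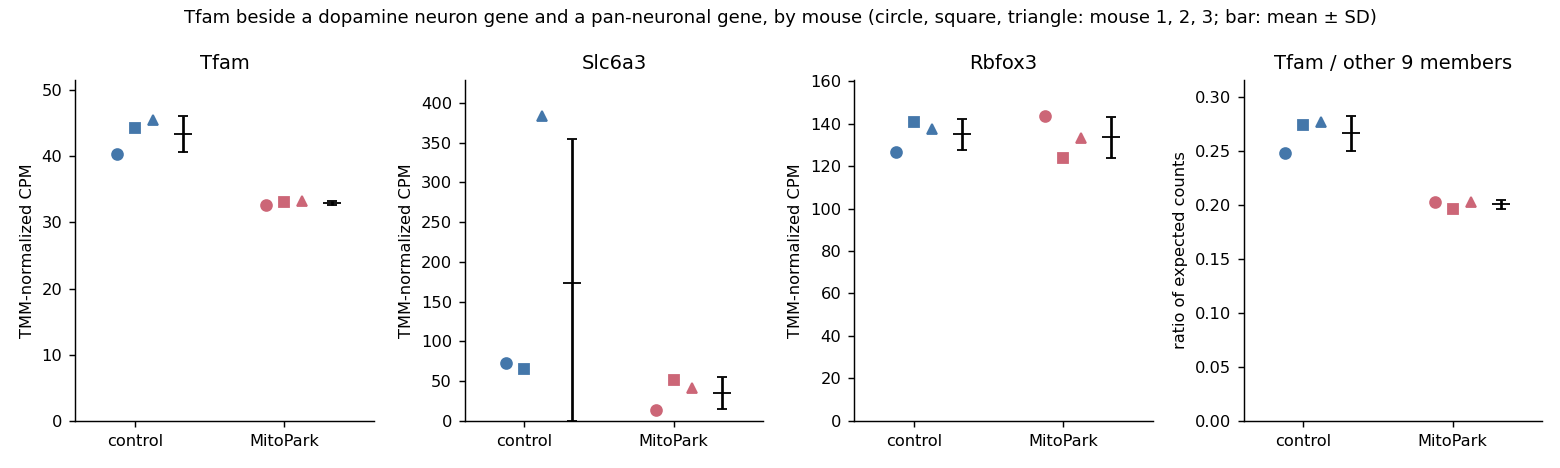
TMM-normalized CPM of Tfam, Slc6a3 and Rbfox3, and the ratio of Tfam to the other 9 members in expected counts, for each mouse with mean ± SD (the lower bar of Slc6a3 in controls is drawn only to 0). Control 3, the triangle among controls, had 383 CPM of Slc6a3 and 45.4 CPM of Tfam, the highest value of each.

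None of the 6 astrocyte, 6 oligodendrocyte, 6 microglia, 5 endothelial or 6 striatal neuron genes listed had an unadjusted p below 0.05, and neither had any of the 6 pan-neuronal genes, all 6 of which had log2 fold changes between -0.20 and -0.02. Summed over its list, the oligodendrocyte level ranged from 6691 to 17740 CPM in controls and from 9194 to 15096 CPM in MitoParks, and the astrocyte level from 3014 to 3604 CPM and from 3206 to 3838 CPM. Without control 3, the library with the highest oligodendrocyte sum, 5 of 6 oligodendrocyte and 2 of 6 astrocyte genes had an unadjusted p below 0.05. In that fit 374 genes over the table did so. The number of genes that fit tested is not given here, so these counts have no share beside them. The medians of the 2 lists were 0.49 and 0.20, and their part in the Tfam difference was not tested. Without MitoPark 3 all 6 oligodendrocyte genes had log2 fold changes below 0 and none an unadjusted p below 0.05. The microglia, endothelial and striatal lists had no gene with an unadjusted p below 0.05 without either library. Of 3 serotonin neuron genes 2 were tested and both had an unadjusted p below 0.05, with higher values in MitoPark 3, and without MitoPark 3 neither passed the filter on low counts. Gfap, the astrocyte filament gene, was at 192, 171 and 352 CPM in controls and at 255, 355 and 549 CPM in MitoParks (unadjusted p = 0.0548, and 0.00135 without control 3, edgeR's quasi-likelihood test). Snap25, a synaptic gene of neurons, Mbp, a myelin gene, and Cx3cr1, a microglial receptor gene, had log2 fold changes of -0.20, 0.13 and -0.01. With libraries split by Xist, the log2 ratio of Tfam means was -0.45 for 2 MitoParks against 2 controls with Xist and -0.29 for the 1 MitoPark against the 1 control with Y-linked transcripts. Adding that split to the model left the log2 fold change of Tfam at -0.39 (unadjusted p = 0.00744, edgeR's quasi-likelihood test).

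The table counts reads per gene over all exons. A transcript of the deleted allele that lacks the floxed exons but is still polyadenylated would be counted as Tfam, so that the counts cannot separate intact from shortened transcripts.

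Of the other genes for transcription, Polrmt, the mitochondrial RNA polymerase, was at 21.5, 17.3 and 21.7 CPM in controls and at 20.0, 19.0 and 21.1 CPM in MitoParks. The MitoParks lay inside the range of the controls. Its log2 fold change was -0.01 (95% interval -0.31 to 0.30, unadjusted p = 0.949), and the sign turned with total counts in place of TMM, where it was 0.0062. Tfb2m, whose protein melts the promoter for the polymerase, was at 25.0, 29.3 and 28.6 CPM in controls and at 23.4, 29.8 and 26.6 CPM in MitoParks. MitoPark 2 was the highest of all 6 mice for Tfb2m and MitoPark 1 the lowest, and the log2 fold change was -0.06 (95% interval -0.36 to 0.24). Tfb1m is a paralog that methylates the ribosomal RNA of the small mitochondrial ribosome subunit. It was the member with the second fewest reads, between 49 and 77 counts per mouse, at 6.01, 6.17 and 7.52 CPM in controls and 6.58, 7.68 and 5.55 CPM in MitoParks. MitoParks included both the highest and the lowest value, and the log2 fold change was 0.01 (95% interval -0.47 to 0.48). None of these 3 intervals reaches a 1.5-fold difference in either direction.

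Promoters of this machinery are textbook targets of nuclear respiratory factor 1 (NRF-1) and of GABP, also called NRF-2. RefSeq promoter windows (GRCm38.p6, 250 bases before to 50 after the start site) were at hand for 9 of the 10 members, all but Top1mt. The letters GCGCATGC, a core of the NRF-1 site, were searched on both strands, as GCATGCGC on the other, and were found in 2 of 9 members, Tfb2m and Polrmt, against 3.05% of all 27025 genes with a window. The letters CCGGAAGT, a core of the GABP site, read ACTTCCGG on the other strand, were found in 3 of 9 members, Tfam, Polg and Twnk, against 4.31% of all genes. The 2 motifs did not overlap in any member. Below, each match is in capitals with 10 bases on either side, read 5′ to 3′ on the strand of the gene, to show the letters that the members of each group share.
Tfam: ctgccgcggaCCGGAAGTccgggcttcc
Polg: aggacctcacCCGGAAGTccctctgcac
Twnk: ctaaccggtgACTTCCGGttccggggtt
Tfb2m: taggtcgttcGCATGCGCcattcgtaat
Polrmt: gagtatttctGCGCATGCtctcttgccg
The windows lie at chr10:71238074-71238101 on the minus strand for Tfam, chr7:79466294-79466321 on the minus strand for Polg, chr19:45006437-45006464 on the plus strand for Twnk, chr1:179546246-179546273 on the minus strand for Tfb2m and chr10:79746697-79746724 on the minus strand for Polrmt. The match begins 47 bases before the start site in Tfam, 38 before it in Polg, 133 before it in Polrmt and 111 before the downstream of the listed start sites in Twnk, and 13 bases after it in Tfb2m. A match describes the letters only, and no binding was measured. Of the 3 members with the GABP core, Tfam had a log2 fold change of -0.40 in MitoParks, Twnk of -0.09 and Polg of 0.15. Of the 2 with the NRF-1 core, Tfb2m had a log2 fold change of -0.06 and Polrmt of -0.01. Except for Tfam, the intervals of these genes span both signs, so the directions of the other genes are not resolved. Whether members with a match change together was not tested.

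Among the replication genes, Polg and Polg2, the catalytic and the accessory subunit of one enzyme, lay on opposite sides of 0. Polg was at 40.5, 35.8 and 38.7 CPM in controls and at 46.5, 40.5 and 40.8 CPM in MitoParks. The groups did not overlap for Polg, but only just, since control 1 and MitoPark 2 both round to 40.5 CPM. Its log2 fold change was 0.15 (standard error 0.12, 95% interval -0.11 to 0.42) with an unadjusted p of 0.226, so that this difference did not pass the test. Counts of Polg were not whole numbers in any of the 6 mice. RSEM gives such counts where reads map to more than 1 gene. Polg has exons that overlap those of Fanci on the opposite strand in GENCODE M21. Opposite-strand exon overlaps were also found for Tfb1m (with Tiam2), Polg2 (Milr1), Twnk (Mrpl43), Top1mt (Gm15945) and Mgme1 (Snx5), and although the libraries marked the strand, the strand setting used in counting is not given in the sources used here, so reads of these pairs may not be separated. None of the partners that were tested had an unadjusted p below 0.05.

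Polg2 was the member with the fewest reads, with 23, 25 and 25 counts in controls and 15, 21 and 15 in MitoParks. At 2.56, 2.37 and 2.44 CPM in controls and 1.83, 2.12 and 1.7 CPM in MitoParks, all 3 MitoParks were lower. The log2 fold change of -0.38 was close in size to that of Tfam, but its standard error was 0.28 and the 95% interval ran from -1.01 to 0.26 (unadjusted p = 0.213). The difference was therefore not resolved at this depth. Counting error alone gives a coefficient of variation of 20.3% in controls, where the 3 values varied by only 3.84%, so the agreement among controls is closer than such counts usually give. Polg2 divided by Polg was 0.0632, 0.0663 and 0.0631 in controls and 0.0392, 0.0523 and 0.0417 in MitoParks, a mean ratio 30.8% lower. Since the groups overlapped in neither gene, and in opposite directions, the ratio had to separate them as well.

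Twnk, the helicase, was at 14.7, 16.9 and 14.5 CPM in controls and at 13.0, 15.6 and 14.5 CPM in MitoParks, with a log2 fold change of -0.09 (95% interval -0.42 to 0.23). Ssbp1, the single-strand binding protein, was at 27.6, 28.5 and 26.8 CPM in controls and at 23.3, 28.3 and 26.5 CPM in MitoParks, with a log2 fold change of -0.08 (95% interval -0.36 to 0.19). For both genes MitoPark 1 was the lowest of the 6 mice. MitoPark 2 lay within the range of controls for both, and MitoPark 3 did so for Twnk and lay just below it for Ssbp1.

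Of the genes for topology and ends, Top1mt, the topoisomerase of mitochondria, was at 14.8, 15.4 and 15.7 CPM in controls and at 18.1, 15.5 and 18.9 CPM in MitoParks. MitoParks 1 and 3 lay above all controls and MitoPark 2 among them. Its log2 fold change of 0.19 was the highest of the members (95% interval -0.11 to 0.50, unadjusted p = 0.185). Mgme1, the exonuclease, was at 9.57, 10.1 and 8.1 CPM in controls and at 8.16, 10.1 and 7.82 CPM in MitoParks, with a log2 fold change of -0.09 (95% interval -0.50 to 0.33).

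**Figure D3:**
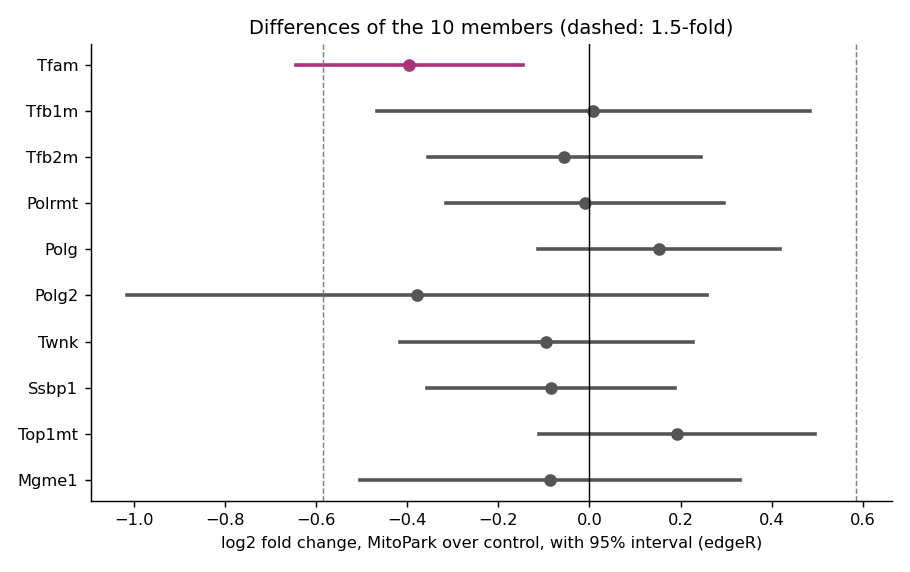
Log2 fold change of MitoPark over control for the 10 members (points) with 95% intervals (bars) from edgeR's quasi-likelihood test. The interval of Tfam, from -0.64 to -0.15, leaves out 0, and 8 of the other 9 intervals lie between the dashed lines that mark 1.5-fold, all but that of Polg2.

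Counted over the machinery, 1 of the 10 members, Tfam, had an unadjusted p below 0.05, where 1.11% of all genes tested did so, 0.446% with lower and 0.659% with higher values in MitoParks. The count behind that share, 161 genes, ranged from 97 without MitoPark 3 to 657 without MitoPark 2. No member met both cutoffs of the study for differentially expressed genes (DEGs), p below 0.05, taken here as unadjusted, and more than 1.5-fold. Both were met by 0.577% of all genes tested, 0.378% with higher and 0.199% with lower values in MitoParks. The split of 55 higher and 29 lower was 43 and 43 without control 2 and 26 and 36 without MitoPark 3. An adjusted p below 0.05 was reached by 0% of genes (edgeR's quasi-likelihood test), and by 0 genes with DESeq2 or limma-voom, while a fit with the replicate number as a block gave 1 gene. The groups did not overlap for 3 members, Tfam and Polg2 with lower and Polg with higher values in MitoParks, where 4.71% of all genes tested did not overlap, 2.28% with lower and 2.43% with higher values. Of the 10 members 7 had a log2 fold change below 0, as had 51.4% of all genes tested, and the median was -0.07, or -0.06 over the 9 members other than Tfam. The median over all genes tested was -0.0047. For 8 of the 9 members other than Tfam the 95% interval excluded a 1.5-fold difference in either direction, as it did for 66.5% of all genes tested, while smaller differences lie within each of these intervals.

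The members did not all follow the same order of mice. Each mouse's deviation from the control mean, as a median over the 10 members on a log2 scale, was between -0.02 and 0.03 in controls and was -0.20, 0.03 and -0.07 in MitoParks 1, 2 and 3. MitoPark 2 was the highest MitoPark for 6 members, Tfb1m, Tfb2m, Polg2, Twnk, Ssbp1 and Mgme1, and MitoPark 1 the lowest for 4, Tfam, Tfb2m, Twnk and Ssbp1. Of those 6, Tfb2m, Twnk, Ssbp1 and Mgme1 also had their highest control value in control 2. Whether these 4 vary together was not tested. MitoPark 2 was also 1 of the 2 libraries with Y-linked transcripts, and whether that bears on these values was not tested. Without MitoPark 2 the median log2 fold change of the members was -0.14, and without MitoPark 1 it was -0.00017.

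Levels of different genes can be compared only per length of transcript. Divided by the longest RefSeq-matched transcript in GENCODE M21, the control means ranged from 11.3 ± 0.939 RPKM (CPM per kilobase, SD, n = 3) for Tfb2m to 1.63 ± 0.0627 RPKM for Polg2. Tfb2m was followed by Tfam at 10.4 ± 0.649 RPKM, Top1mt at 8.04 ± 0.245 RPKM and Ssbp1 at 6.28 ± 0.195 RPKM, and then by Polrmt, Polg, Tfb1m and Twnk between 5.36 and 4.4 RPKM and Mgme1 at 3.25 ± 0.358 RPKM. The 3 control values of Tfb2m and Tfam overlapped, as did those of Polrmt with Polg, Polg with Tfb1m and Tfb1m with Twnk, so these neighbours are not ordered beyond their spread. The place of Ssbp1 depends on the transcript taken, since its RefSeq-matched transcripts run from 1063 to 4398 bases. With the shortest in place of the longest it came first at 26.0 RPKM, and Twnk moved to 6.99 RPKM. Within the polymerase, Polg was at 4.89 ± 0.304 RPKM and Polg2 at 1.63 RPKM in controls. In MitoParks Tfam was at 7.91 ± 0.0682 RPKM, below Top1mt at 9.2 ± 0.955 RPKM, where in every control it was above Top1mt.

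Other genes of mitochondrial DNA upkeep and expression were taken from a list of 52, of which 51 were tested. Of these 51, 29 had a log2 fold change above 0 and 22 below, with a median of 0.0048, beside -0.0047 over all genes tested. Only Mterf1b, 1.96% of the list, had an unadjusted p below 0.05, beside 1.11% over the table, and the groups did not overlap for the same gene only, 1.96% of the list beside 4.71% over the table. For 36 of the 51, or 70.6%, the 95% interval excluded a 1.5-fold difference, beside 66.5% over the table. The 14 genes of replication and repair accessories, such as the ligase Lig3 and the protease Lonp1 that degrades unbound TFAM, had 9 above 0 and 5 below (median 0.07), and Lonp1 was at 70.9 ± 2.7 CPM in controls against 75.4 ± 3.74 CPM in the mutants (SD, n = 3), a log2 fold change of 0.09 (95% interval -0.13 to 0.31). The 11 tested genes that supply nucleotides, such as the thymidine kinase Tk2, had 7 above and 4 below (median 0.0018), and the 20 genes of RNA processing and decay, such as Lrpprc, which stabilizes mitochondrial messengers, had 9 above and 11 below (median -0.02). Of those 20, 18 had intervals that excluded a 1.5-fold difference.

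**Figure D4:**
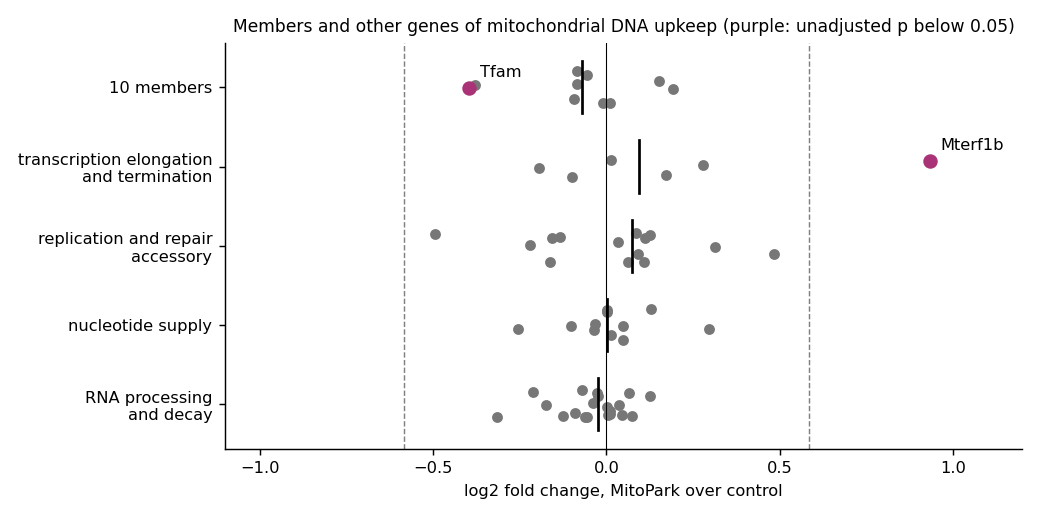
Log2 fold change of MitoPark over control (x axis) for the 10 members and for 4 lists of other genes of mitochondrial DNA upkeep, each point 1 gene and each black line a list's median. Tfam (-0.40) and Mterf1b (0.93) are the genes with an unadjusted p below 0.05.

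Mterf1b is 1 of the mouse copies of the mitochondrial transcription termination factor. It was at 1.0, 1.8 and 2.44 CPM in controls and at 2.92, 3.13 and 4.08 CPM in MitoParks, and the log2 fold change was 0.93 (SE 0.35, unadjusted p = 0.0263, Benjamini-Hochberg adjusted p = 0.999, edgeR), so that it met both DEG cutoffs by the unadjusted p. Behind these values were 9.31 to 25.37 counts in controls and 24.17 to 35.63 in MitoParks. Its near-identical copy Mterf1a was at 4.78, 4.65 and 3.42 CPM in controls and 3.29, 5.35 and 2.49 CPM in MitoParks, and the counts of both were not whole in any mouse, so that reads were divided between them and each level is uncertain. The sum of both was 5.79, 6.45 and 5.86 CPM in controls and 6.21, 8.48 and 6.57 CPM in MitoParks, and the groups overlapped (exact permutation test, p = 0.2). Mterf1b lost its unadjusted p below 0.05 without control 1, without control 2 and without MitoPark 3. The other 5 genes of elongation and termination, Tefm, Mterf1a, Mterf2, Mterf3 and Mterf4, did not pass the test, and Mterf4, which directs a methylase to the mitochondrial ribosome, was at 22.1 ± 1.06 CPM in controls and 26.8 ± 5.01 CPM in MitoParks (SD, n = 3, unadjusted p = 0.098). A search by symbol for 15 genes that mitochondrial DNA itself encodes found none of them in the deposited table, so their transcripts were not analysed here.

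With single mice left out, Tfam had the narrowest range of log2 fold changes among the members. Over the 6 fits that each left out 1 mouse, its log2 fold change ranged from -0.44 to -0.36 and its unadjusted p stayed below 0.05. Polg2 ranged from -0.47 to -0.31, Polg from 0.0944 to 0.20 and Top1mt from 0.13 to 0.28, without a change of sign and without an unadjusted p below 0.05. Tfb1m changed sign in 3 of the 6 fits, Polrmt in 4 and Tfb2m in 1, and Twnk, Ssbp1 and Mgme1 stayed below 0 in all 6, with values as near to 0 as -0.0013 for Ssbp1.

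**Figure D5:**
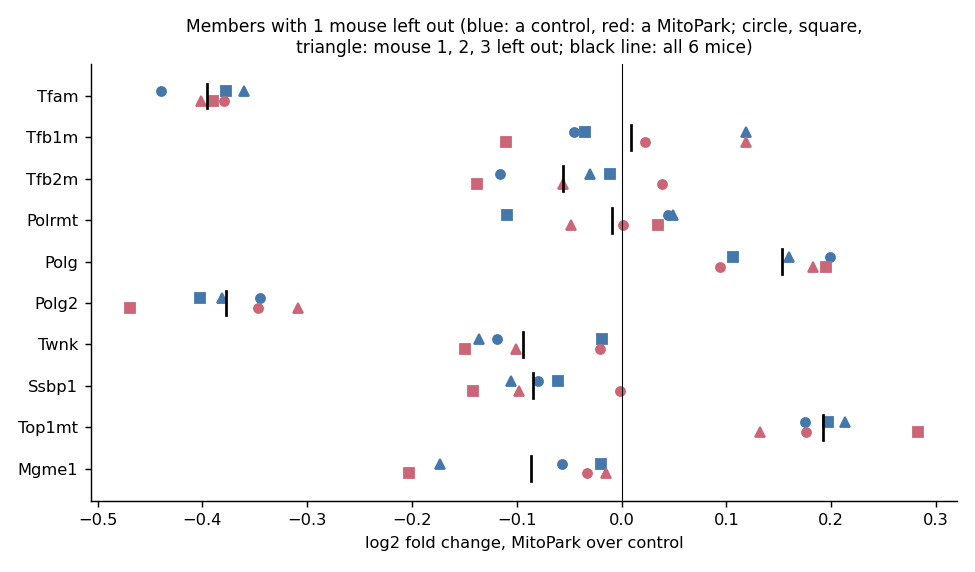
Log2 fold change of MitoPark over control for each member with 1 mouse left out (blue points, a control left out; red points, a MitoPark left out) and with all 6 mice (black lines). Tfam stays between -0.44 and -0.36, and Tfb1m, Tfb2m and Polrmt lie on both sides of 0.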

How the data were processed

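Polyadenylated RNA from 3 littermate controls and 3 MitoParks was analysed. Per the study's methods and the submitters' processing notes, the authors mapped reads to UCSC transcripts with Bowtie2 2.1.0 and estimated each gene with RSEM 1.2.15, and they deposited expected counts, not normalized, for 24054 genes listed by symbol. The notes name a human genome build for these mouse samples, so coordinates come only from the RefSeq windows. Columns named Control and Treat were matched to the titles Control and PD by number.

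Expected counts were rounded, scaled by TMM and tested in edgeR 4.0.16 (R 4.3.3) by the quasi-likelihood test with 2 groups and no other term. The filter required a group mean over 1 CPM. Intervals are 95% intervals from the same fit. For edgeR the methods give a p below 0.05 and a fold change above 1.5 without saying whether p is adjusted, and another passage, on RPKM values that the table does not hold, sets an adjusted p below 0.05. Permutation tests used log2(CPM + 0.1), or the log2 of a ratio (scipy 1.17.1). At these depths 1 count equals 0.0949 to 0.122 CPM, and counting error is only a part of the error. The labels number the samples and do not say more of how they were taken, so p-values measure the spread between these samples, each treated here as 1 mouse. Alternatives were RLE and total-count scaling, no filter, filterByExpr, unrounded counts, DESeq2 1.42.0, limma-voom (limma 3.58.1), a block for the replicate number, and fits that left out single mice. A term for Xist was added after the data were seen. The members and lists were chosen with earlier results of these data known. The rule named all members, other listed genes with an unadjusted p below 0.05, dopamine neuron genes and 1 marker for each of 4 other cell types, and the remaining genes named are examples chosen after their values were seen.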

Additional observations from a re-analysis of the deposited data

How the results depend on the processing

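Tfam kept its direction and an unadjusted p below 0.05 under all 9 alternatives with 6 mice, where its log2 fold change lay between -0.40 and -0.38, and in the 6 fits that left out 1 mouse, where it lay between -0.44 and -0.36 (p from 0.00492 to 0.0246 over all of them, edgeR's quasi-likelihood test, DESeq2 and limma-voom). The number of members with an unadjusted p below 0.05 stayed at 1 throughout, and no member met both DEG cutoffs in any of these fits. Polrmt turned to 0.0062 with total counts, and with 1 mouse left out it ranged from -0.11 to 0.0487, Tfb1m from -0.11 to 0.12 and Tfb2m from -0.14 to 0.0382. These are the results that reversed, and their 95% intervals include 0 with all 6 mice. The median over the members lay between -0.14 and -0.00017 with 1 mouse left out. The number of DEGs in the whole table, 84, moved to 176 without the filter and ranged from 62 to 219 with 1 mouse left out, with 133 without control 1, 219 without control 3 and 217 without MitoPark 2. The number of other upkeep genes with an unadjusted p below 0.05, 1, ranged from 0 to 3. It was 0 without control 1, control 2 or MitoPark 3 and 3 without MitoPark 2, which added Mterf4 and Rrm1. Genes at an unadjusted p below 0.05, 161, numbered 96 by DESeq2, 242 without the filter and 323 with the block, and from 97 without MitoPark 3 to 374 without control 3 and 657 without MitoPark 2. The cause was not tested.

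No source used here ties same-numbered mice to each other. The deviations of their log2 levels from the group means correlated at 0.353, -0.0695 and 0.277 for replicates 1, 2 and 3. With the replicate number as a block, Tfam had a log2 fold change of -0.39 by edgeR's quasi-likelihood test and kept an unadjusted p below 0.05. In that fit 126 genes were DEGs and 1 gene reached an adjusted p below 0.05, where the fit without the block gave 0. The number of members with an unadjusted p below 0.05 stayed at 1. Depth limits what can be seen for Polg2, the member with the fewest reads, with 25 counts or fewer in each mouse.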
